A study of Rattus norvegicus with 24 samples.

Results

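The report describes 9 genes of Alzheimer-disease biology in the frontal cortex of rats that inhaled tungsten particles. They were chosen by gene name: the amyloid precursor App and its homologues Aplp1 and Aplp2, the secretase genes Psen2 and Bace1, the tau gene Mapt, the lipoprotein genes Apoe and Clu, and the sorting receptor Sorl1. Of the 9, 8 were listed in each of the 24 gene tables, which hold 32883 Ensembl reference genes, and all 8 were among the 15644 genes with a mean scaled coverage of at least 1 that were tested. Sorl1 was listed neither under that name nor under any of its 3 RefSeq synonyms, and no value is given for it.

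Poly(A) RNA of the frontal cortex was sequenced in stranded libraries from adult male Sprague-Dawley rats, with 8 libraries for each of 3 aerosol concentrations. The Control group was exposed at 0 mg/m3, the Low group at 5 mg/m3 and the High group at 80 mg/m3, with library numbers 49 to 56, 57 to 64 and 65 to 72. The libraries came from 24 rats, sampled 24 hours after exposure, and no source used here gives how long the exposure lasted. The comparisons ask whether the transcripts of these genes differed with the inhaled concentration.

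App is a membrane protein that is cut in alternative ways. Cleavage by the β-secretase Bace1 and then by γ-secretase, of which Psen2 can be the catalytic subunit, releases the amyloid-β peptide, whereas cleavage by an α-secretase of the Adam family cuts within that peptide. Aplp1 and Aplp2 are processed by similar enzymes but lack the amyloid-β sequence. Tau, the product of Mapt, binds microtubules in axons and forms tangles when highly phosphorylated. Apolipoprotein E and clusterin, secreted largely by astrocytes in the brain, carry lipids and bind amyloid-β.

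The level used is the scaled coverage. It is the mean number of reads over each base of a gene, divided by the sum over all reference genes of that library and multiplied by 1000000. It is counted per base, but the order of genes by it can differ from that by the FPKM column, as given below for Clu and Aplp2. The summed coverage that it was divided by ranged from 1.64 to 3.07 times 1000000 per library. Genes of the mitochondrial chromosome held 21.8% to 33.8% of the sum. In libraries 56 to 62, that is 1 Control and 6 Low libraries, short minus-strand mitochondrial genes held 0.545% to 0.810% of it, against at most 0.0155% in the other 17. The Low tables list no assembled loci beyond the reference genes while the Control and High tables list 46334 to 159573, so the kind of table and the Low exposure cannot be told apart.

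All 9 neuron markers and all 8 astrocyte markers were detected, and their summed scaled coverage was 2416 to 3987 and 2473 to 3933 over the 24 libraries. Microglia markers summed to 185 to 341 and choroid plexus markers to 5.72 to 75.6. The 5 tested meninges markers and the 6 striatum markers had median log2 fold changes of -0.50 and -0.60 in Low against Control, with 0 of them called, and -0.26 and -0.31 in High against Control. In Low against Control, 6.11% of all genes were called and 18.4% had an unadjusted limma p under 0.05. Of the meninges markers 4 of 5 had such a p, with a lowest limma adjusted p of 0.0558, and of the striatum markers 0 of 6. In Low against High, 1 of 3 endothelium markers was called higher (median of the list 0.25) and 0 of 8 oligodendrocyte markers were, although all 8 were above 0 (median 0.23). Of all genes, 5.3% were called higher and 69.9% were above 0 in that comparison. The part of these markers in the results below was not tested. In such bulk tissue, fewer cells of a type and less RNA per cell cannot be told apart.

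The promoters of Aplp1 and Aplp2 are shown because the correlated pairs that passed the test, described below, joined these homologues to different genes. RefSeq promoters of build GRCr8 matched 7 of the 9 genes, in 9 windows, and Mapt and Clu had no entry. The windows hold the 250 bases before the annotated start, on the minus strand of chr1:94834611-94834860 for Aplp1 and of chr8:37920032-37920281 for Aplp2, written 5′ to 3′ with each GC box (GGGCGG on either strand) in capitals.
Aplp1: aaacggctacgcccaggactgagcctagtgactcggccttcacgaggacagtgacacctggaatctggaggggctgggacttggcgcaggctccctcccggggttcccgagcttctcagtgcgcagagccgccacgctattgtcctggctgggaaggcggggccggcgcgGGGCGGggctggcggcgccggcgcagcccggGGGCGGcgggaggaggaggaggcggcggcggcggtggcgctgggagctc
Aplp2: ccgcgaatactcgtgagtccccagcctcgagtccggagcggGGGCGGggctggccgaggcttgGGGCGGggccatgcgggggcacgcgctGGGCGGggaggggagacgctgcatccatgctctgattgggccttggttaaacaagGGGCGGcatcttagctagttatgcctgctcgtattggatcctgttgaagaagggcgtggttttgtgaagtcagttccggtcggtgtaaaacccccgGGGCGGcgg
The Aplp2 window held 5 GC boxes and the Aplp1 window 2, whereas 30.5% of the 33469 RefSeq windows of that length held any. GC made up 64.8% of the Aplp2 window and 73.6% of the Aplp1 window, against a median of 51.2% over all windows. A TATAAA on either strand was found in 0 of the 9 windows of these genes and in 12.9% of all windows. The windows of Bace1, Psen2 and Sorl1 held 0 GC boxes.

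The 8 genes spanned a wide range of levels, in the order Apoe, Aplp1, App, Aplp2, Clu, Mapt, Bace1 and Psen2. Apoe ranked 30 among the 15644 genes tested by mean scaled coverage, Aplp1 ranked 77 and App 80. Aplp2 ranked 272, Clu 354 and Mapt 1071. The secretase genes were far lower, with Bace1 at rank 3197 and Psen2 at rank 7076. Neighbours in this order were compared within the 8 Control libraries by an exact two-sided sign-flip test of the log2 ratio, with 7 pairs and a smallest possible p of 0.0078. Aplp1 and App could not be separated: Aplp1 was higher in 6 of 8 Control libraries and in 16 of all 24, with a mean log2 ratio of 0.081 ± 0.168 (SD, n = 8, exact p = 0.203). In each of the other 6 pairs the first gene was higher in 8 of 8 Control libraries, at an adjusted exact p of 0.0091. Over all 24 libraries that held too, except that Aplp2 exceeded Clu in 23. The order of Aplp2 and Clu depended on the column. By FPKM, Clu had a Control median of 283 (239 to 300) and Aplp2 one of 125 (116 to 144), so Clu was the higher.

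App (ENSRNOG00000006997), the precursor itself, had a scaled coverage in Control from 735 to 1037, with a median of 906. The Low libraries spanned 691 to 1029 around a median of 980, and the High libraries 686 to 1056 around 862. The 3 ranges overlapped nearly throughout, and the lowest Low value belonged to library 61, in which the other 7 began at 916. The means were 888 ± 110 in Control, 943 ± 110 in Low and 873 ± 113 in High (SD, n = 8 each).

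Aplp1 (ENSRNOG00000020851), a mostly neuronal homologue of App, lay between 787 and 1041 in the Control libraries, with a median of 963. The Low libraries spanned 815 to 1103 around a median of 960, and the High libraries 840 to 1021 around 893. No group stood apart. Aplp2 (ENSRNOG00000047179), the more widely expressed homologue, ran from 303 to 407 in the Control libraries, with a median of 363. The Low libraries spanned 342 to 452 around a median of 400, and the High libraries 299 to 391 around 349. Its Low libraries overlapped both other groups.

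Bace1 (ENSRNOG00000016847) was the most variable of the 8 in Control and in Low, but not in High. In Control it ran from 18.1 to 57.2 around a median of 50.4, and the lowest value came from library 49 alone. In Low it spanned 36.2 to 66.2 around a median of 56.4, lowest in library 57, and the High libraries 35.5 to 48.1 around 41.8. The groups overlapped, with High at the lower side. Its coefficient of variation was 27.4% in Control, 17.8% in Low and 10.03% in High. Psen2 (ENSRNOG00000002879), the catalytic subunit of γ-secretase among these genes, was the lowest, with 14.2 to 19.5 in the Control libraries around a median of 17.7. Low values spanned 17.5 to 22.5 around 19.3, and the High libraries 15.7 to 21.6 around 17.5, so all 3 groups overlapped.

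Mapt (ENSRNOG00000005133), which encodes tau, varied least in Control, with a coefficient of variation of 4.84%. The Control libraries spanned 120 to 138 around a median of 129, the Low libraries 120 to 150 around 132 and the High libraries 109 to 133 around 124. Both exposed groups covered most of the Control range.

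Apoe (ENSRNOG00000018454) had values from 2291 to 3095 in the Control libraries, with a median of 2506. The Low libraries spanned 2069 to 3072 around a median of 2563, and the High libraries 2060 to 3379 around 2672. Its spread was widest in High, with a coefficient of variation of 17.4% against 9.41% in Control. Clu (ENSRNOG00000016460), which encodes clusterin, lay between 249 and 322 in the Control libraries, with a median of 289. Low values lay between 281 and 348 around a median of 312, and the High libraries 241 to 330 around 284. For both genes the groups overlapped. The summed astrocyte markers had medians of 3178, 3193 and 3020 in Control, Low and High, and the summed microglia markers 241, 258 and 244.

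**Figure D1:**
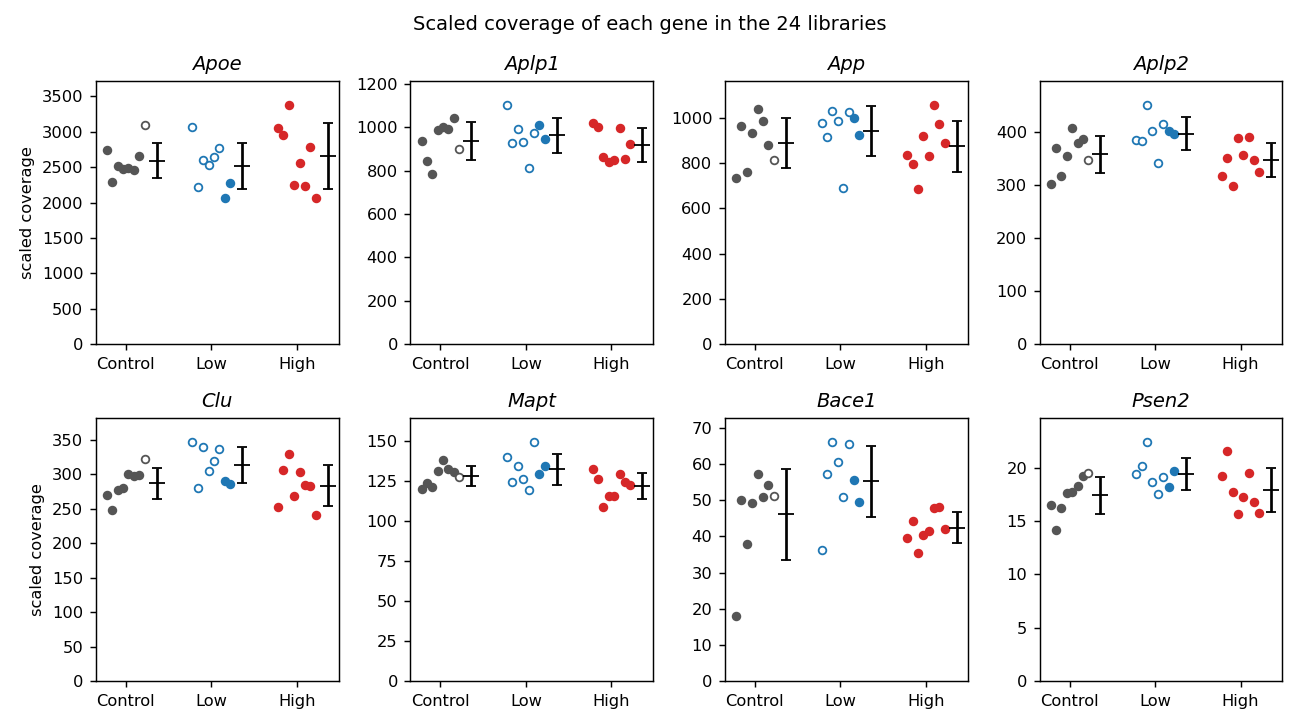
Scaled coverage (y axis, from 0) of each of the 8 genes in the Control, Low and High groups. Points are libraries, open points are libraries 56 to 62, and the bars to the right are the mean and SD of 8 libraries. The groups overlap in every panel, and Bace1 in Control library 49 lies at 18.1, far under the other Control libraries.

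As the tables give them, Apoe lies on chromosome 1 from 80612895 to 80617057 and Aplp1 on chromosome 1 from 88897532 to 88908750, both on the minus strand. App lies on chromosome 11 from 24425005 to 24641858 and Aplp2 on chromosome 8 from 32298532 to 32328839, both on the minus strand. Psen2 lies on the minus strand of chromosome 13 from 98513570 to 98530724 and Bace1 on the plus strand of chromosome 8 from 50139997 to 50162361. Mapt lies on the plus strand of chromosome 10 from 92288910 to 92386517, where 2 reference genes on the other strand overlap it, and Clu on the plus strand of chromosome 15 from 42640146 to 42665857. The submitters' processing notes name mRatBN7.2, but 23.4% of the gene names carry clone accessions of the kind used with an older rat assembly, so the build of these positions is uncertain.

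At the low concentration none of the 8 genes passed the test, and for each of them the Low and Control libraries overlapped. In Low against Control, 0 of 8 passed an adjusted p of 0.05 in limma, where 6.11% of all genes tested did, and 2 of 8 had an unadjusted p under 0.05, where 18.4% of all genes did. These were Aplp2, with a log2 fold change of 0.15 ± 0.07 (SE, limma adjusted p = 0.223), and Psen2, with 0.15 ± 0.07 (adjusted p = 0.254). Bace1 had the largest value and the largest error, 0.30 ± 0.17 (adjusted p = 0.347). App was at 0.09 ± 0.09, Mapt at 0.04 ± 0.05, Aplp1 at 0.04 ± 0.07, Clu at 0.13 ± 0.07 and Apoe at -0.04 ± 0.10. Of the 8, 7 had a positive sign, with a median of 0.11, beside 66.5% of all genes and a median of 0.06. The exact Wilcoxon rank-sum test also called 0 of the 8, against 2.38% of all genes, and put Aplp2 and Psen2 at an unadjusted exact p of 0.0499.

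At the high concentration the 8 genes lay close to the median of all genes. In High against Control, 0 of 8 passed in limma, as did 0% of all genes, and 0 of 8 had an unadjusted p under 0.05, beside 2.11% of all genes. The exact Wilcoxon test called 0% of all genes and 0 of the 8, and 0 of the 8 had an unadjusted exact p under 0.05. The log2 fold changes lay between -0.07 for Mapt and 0.04 for Psen2, with 6 of 8 negative and a median of -0.03, equal to that of all genes. The 95% confidence intervals show what these 8 libraries per group could have hidden. For App it ran from 0.862-fold to 1.12-fold, for Apoe from 0.886-fold to 1.17-fold and for Mapt from 0.884-fold to 1.02-fold. For Bace1 it was wider, from 0.757-fold to 1.22-fold.

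The comparison of the exposed groups with each other gave the smallest p-values, again with no gene past the threshold. In Low against High, 0 of 8 passed in limma, where 11.7% of all genes did, and 4 of 8 had an unadjusted p under 0.05, where 29.1% of all genes did. Aplp2 came nearest, with 0.19 ± 0.07 (SE, limma adjusted p = 0.0598). Bace1 was at 0.36 ± 0.17 (adjusted p = 0.160), Mapt at 0.12 ± 0.05 (adjusted p = 0.132) and Clu at 0.15 ± 0.07 (adjusted p = 0.149). App was at 0.11 ± 0.09, Psen2 at 0.11 ± 0.07, Aplp1 at 0.07 ± 0.07 and Apoe at -0.07 ± 0.10, so 7 of 8 were positive with a median of 0.11, beside 69.9% and 0.09 for all genes. The exact Wilcoxon test called 0 of 8, against 7.33% of all genes, and gave 3 of 8 an unadjusted exact p under 0.05, of which Bace1 had 0.0070.

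Whether Aplp2 passed depended on single libraries and on the scaling. Its limma adjusted p in Low against High was 0.0371 without Control library 49, 0.0247 without Low library 61, 0.0412 without High library 68 and 0.0347 without High library 70, and it was 0.0131 when the sum left out mitochondrial genes. With that sum, Aplp2 also passed in Low against Control, at 0.18 ± 0.05 (limma adjusted p = 0.0338). With median-of-ratios scaling it was 0.10 in Low against High (limma adjusted p = 0.283). Bace1 passed in Low against High without Control library 49 (limma adjusted p = 0.0184). Of all genes, 2676 of 15664 passed in Low against High without Control library 49, and 2479 of 15656 without Low library 61. Without High library 68 it was 1667 of 15644 and without High library 70 2050 of 15639, beside 1828 of 15644 with all libraries. With mitochondrial genes left out of the sum, 1759 of 16241 passed in Low against Control and 2719 in Low against High. With libraries 56 to 62 left out, only 2 Low libraries remained, and Aplp2 was 0.21 ± 0.11 and Bace1 0.31 ± 0.28 in Low against High. Low and High fold changes against Control share the same 8 Control libraries.

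**Figure D2:**
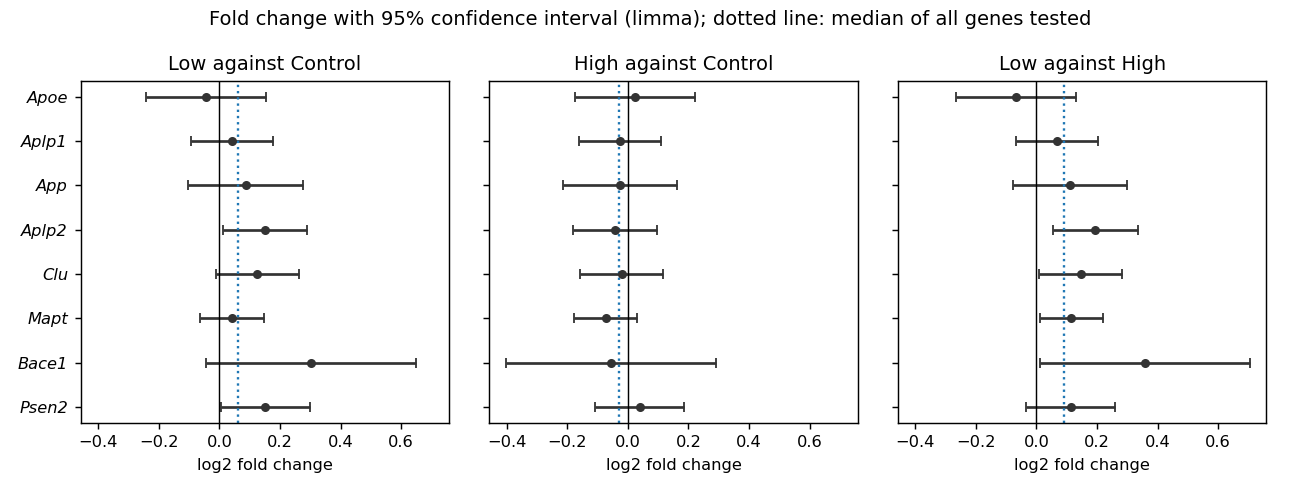
Log2 fold change (x axis) of each of the 8 genes in Low against Control, High against Control and Low against High. Points are limma estimates, bars their 95% confidence intervals, and the dotted line the median of all 15644 genes. Most intervals hold 0, the values for High against Control are all between -0.07 and 0.04, and Bace1 has the widest interval in each comparison.

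Ratios within a library do not depend on the scaling, and they are given as a description with no test because they were chosen after the values were seen. The log2 ratio of App to Aplp2 was 1.31 ± 0.08 in Control, 1.24 ± 0.10 in Low and 1.32 ± 0.13 in High (SD, n = 8 each). That of App to Aplp1 was -0.08 ± 0.17, -0.04 ± 0.12 and -0.08 ± 0.21. The balance of the 3 precursor genes thus moved by less than its SD. The log2 ratio of Bace1 to App was -4.33 ± 0.43 in Control, -4.11 ± 0.30 in Low and -4.36 ± 0.11 in High, and that of Mapt to App was -2.78 ± 0.13, -2.83 ± 0.14 and -2.83 ± 0.16.

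From the FPKM column, that of Mapt to App was instead -2.20 ± 0.46 in Control, -1.34 ± 0.15 in Low and -2.43 ± 0.33 in High.

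From the coverage column, the log2 ratio of Apoe to Clu was 3.17 ± 0.10 in Control, 3.003 ± 0.09 in Low and 3.22 ± 0.21 in High, and the Low libraries, from 2.83 to 3.14, overlapped the Control libraries, from 3.05 to 3.34. Without libraries 56 to 62 it was 2.91 ± 0.12 in 2 Low libraries and 3.16 ± 0.10 in 7 Control libraries. From the FPKM column, the same ratio was 1.79 ± 0.12 in Control, 1.77 ± 0.09 in Low and 1.83 ± 0.21 in High, so the difference between Low and Control fell from 0.17 to 0.03 when the other column was read.

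The columns of the tables did not carry the same picture for tau. Coverage divided by FPKM was set relative to the library's median over 11629 genes, so that a gene with the usual relation has a value of 1. Aplp1 stayed at 1 in all libraries. Mapt ran from 0.330 to 0.387 in the 8 Low libraries, against 0.434 to 0.978 in Control and 0.456 to 0.923 in High, so every Low library was below every other. Apoe (0.799 to 0.809 in Low, at least 0.844 elsewhere), Clu (0.340 to 0.342, at least 0.346 elsewhere), Psen2 (0.944 to 0.949, at least 0.952 elsewhere) and App (0.985 to 0.991, against 1 elsewhere) shared this order by smaller steps. These are 5 of 8 genes, beside 14.5% of all genes.

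Of the 8 genes, Mapt departed most from the median of all genes in Low against Control when FPKM was read. Its FPKM was 46.2 to 94.1 in the Control libraries (median 68.3), while the Low libraries spanned 174 to 203 (median 182) and the High libraries 45.9 to 96.6 (median 52.8), so the Low values stood clear of both other groups. On the FPKM scale its log2 fold change in Low against Control was 1.47 ± 0.15 (SE, limma adjusted p = 5.17e-09), where the median of all genes was 0.53. On the coverage scale it was 0.04. With FPKM, 12393 of 13816 genes were called in Low against Control, among them each of the 8, so that p-value does not set Mapt apart. Relative to the median of all genes, the FPKM values of the other 7 were between 0.02 for Aplp1 and 0.19 for Bace1. Whether the different kind of Low table moved Mapt was not tested.

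**Figure D3:**
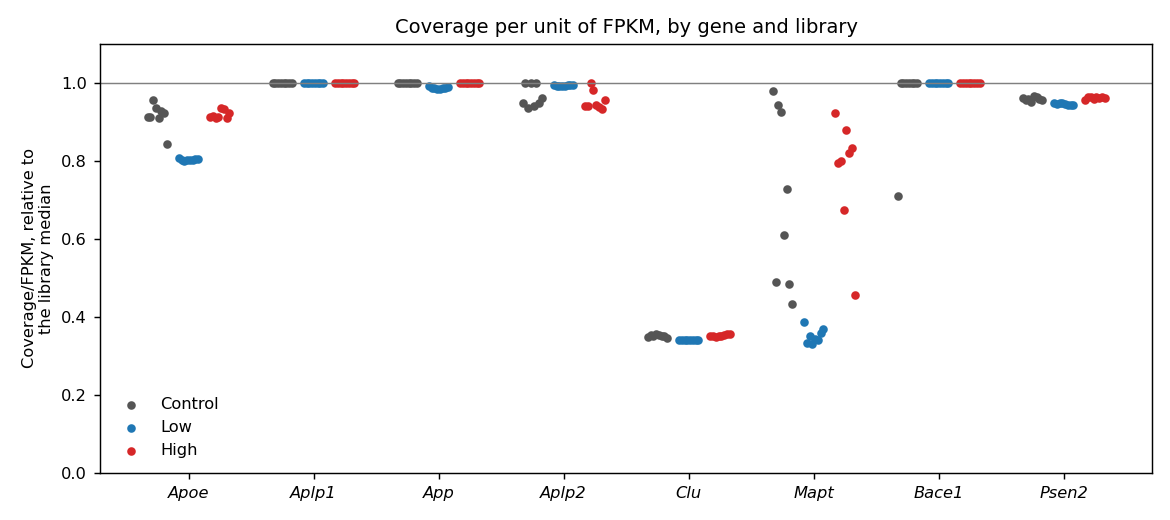
Coverage divided by FPKM relative to the library's median (y axis, from 0) for each of the 8 genes. Points are libraries in Control, Low and High. Mapt lies between 0.330 and 0.387 in Low and spreads from 0.434 to 0.978 in Control, Clu stays near 0.35 in all groups, and Bace1 departs from 1 in Control library 49 only, at 0.710.

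Each of the 8 genes shared bases with a same-strand assembled locus in each of the 16 Control and High tables, and in 65 of these 128 cases the locus had the same coverage as the gene, to 0.1%. App and Clu matched in 15 of 16 tables, Apoe in 14, Aplp2 in 10, Psen2 in 8, Bace1 in 2, Aplp1 in 1 and Mapt in 0. Where the coverage was equal, the loci thus relist reads that the reference gene already holds. In the values given here no locus was added to a gene. The same-strand loci over Mapt had 0.910 to 1.87 times the coverage of the gene (median 1.40). Over Bace1 that ratio was 0.519 to 1 (median 0.718) and over Aplp1 0.666 to 1.002 (median 0.934). Assembled loci on the other strand overlapped Bace1 and Mapt in 16 of 16 tables. Their summed coverage over Bace1 was 17.2% to 246% of that of the gene (median 114%), and over Mapt 4.10% to 69.2% (median 10.1%). The other 6 genes had such a locus in 1 to 3 tables. The libraries were prepared with a kit that marks strand, but no source used here gives the strand setting of assembly and counting, so reads of a gene and of an opposite-strand neighbour may not have been kept apart.

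Some of the genes varied together between libraries, and they are grouped below into sets by these correlations. After subtraction of the group means from log2(scaled coverage + 1), Pearson's r was computed for all 28 pairs over 24 libraries, with a permutation test within groups (100000 permutations), and 7 pairs passed an adjusted p of 0.05 by both Pearson's r and Spearman's rho. All values share the library's own sum. App went with Aplp2 (r = 0.83, permutation p = 2e-05, adjusted 0.00056; rho = 0.77, permutation p = 9e-05, adjusted 0.00084). That relation had r = 0.91 in Control, 0.88 in Low and 0.74 in High, 0.77 without the 2 libraries farthest from the median App value, 0.82 in the 17 libraries outside 56 to 62 and 0.72 with mitochondrial genes left out of the sum. For the pairs below, the 2 farthest libraries were likewise chosen by 1 gene of the pair only. That gene was App in the pairs of App, and Aplp1 in its pairs with Mapt and Psen2. For Aplp2 with Bace1 it was Aplp2, and for Apoe with Clu it was Apoe.

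Bace1 belonged to the same set, with r = 0.66 to Aplp2 (permutation p = 0.00029, adjusted 0.0027; rho = 0.72, permutation p = 2e-05, adjusted 0.00056) and 0.54 to App (permutation p = 0.0045, adjusted 0.018; rho = 0.66, permutation p = 0.00024, adjusted 0.0017). Within groups, the former was 0.85, 0.52 and 0.63 and the latter 0.74, 0.25 and 0.82 in Control, Low and High. Without the 2 libraries farthest in Aplp2 and in App, respectively, they were 0.65 and 0.61. These were not chosen by Bace1, so Control library 49, with the lowest Bace1 value, was kept. Outside libraries 56 to 62 the 2 values were 0.73 and 0.70, and with mitochondrial genes left out of the sum 0.66 and 0.48.

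Mapt went with Aplp1 (r = 0.72, permutation p = 0.00013, adjusted 0.0018; rho = 0.76, permutation p = 5e-05, adjusted 0.0007), with 0.74, 0.67 and 0.81 within groups, 0.71 without the 2 farthest libraries, 0.73 in the 17 and 0.46 with mitochondrial genes left out of the sum. It also went with App (r = 0.66, permutation p = 0.0010, adjusted 0.0057; rho = 0.59, permutation p = 0.0039, adjusted 0.016), but that value was 0.48 without the 2 farthest libraries and 0.33 with mitochondrial genes left out of the sum. Aplp1 went with Psen2 (r = 0.61, permutation p = 0.0028, adjusted 0.013; rho = 0.66, permutation p = 0.0014, adjusted 0.0080), at 0.63, 0.39 and 0.77 within groups, 0.66 without the 2 farthest libraries, 0.73 in the 17 and 0.45 with mitochondrial genes left out of the sum.

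The lipoprotein genes formed the other set. Apoe went with Clu (r = 0.69, permutation p = 0.00075, adjusted 0.0053; rho = 0.65, permutation p = 0.0021, adjusted 0.0096), at 0.68 in Control, 0.90 in Low and 0.58 in High, 0.58 without the 2 farthest libraries, 0.53 in the 17 and 0.76 with mitochondrial genes left out of the sum. App and Apoe had r = -0.44 (permutation p = 0.042, adjusted 0.099; rho = -0.41, permutation p = 0.060, adjusted 0.13). That value was -0.57 in Control, -0.02 in Low and -0.71 in High, -0.32 without the 2 farthest libraries, -0.63 in the 17 and -0.57 with mitochondrial genes left out of the sum, and it did not pass the correction.

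**Figure D4:**
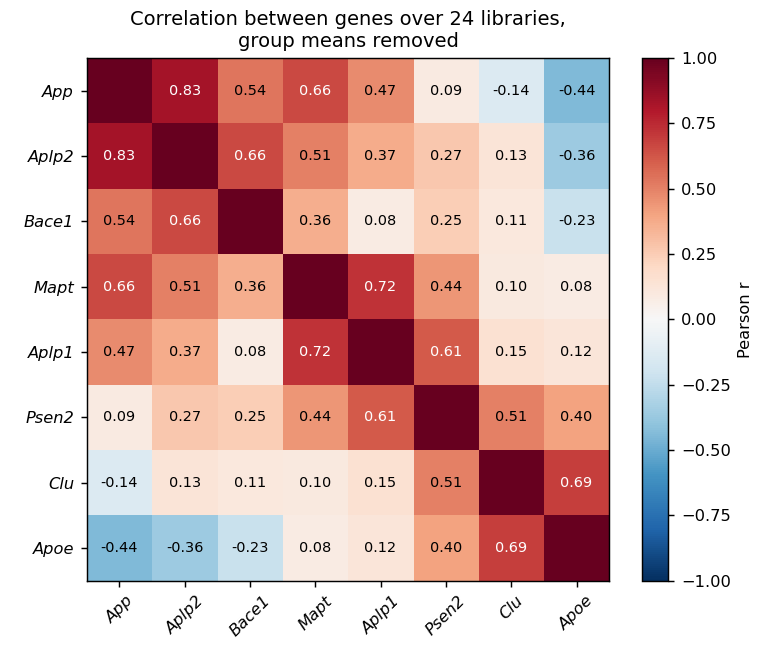
Pearson's r between each pair of the 8 genes over 24 libraries after the group means were removed, from blue (-1) to red (1), with the value in each cell. App, Aplp2 and Bace1 share positive values at the upper left, Apoe and Clu share 0.69 at the lower right, and App and Apoe have -0.44.

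Other genes followed single members closely, by the same r over 24 libraries among 13159 other named genes, given as a description with no test. The 3 most like App were Enpp5 (r = 0.98), Lancl1 (0.97) and Fam234b (0.96). The 3 most like Bace1 were Fam168b (0.97), Mgat3 (0.96) and Nt5dc3 (0.96), and the 3 most like Aplp2 were Ap2a1 (0.91), Sez6l2 (0.91) and Gdap1 (0.90). Aplp1 was followed by Ywhaq (0.88), Psma1 (0.86) and Fez1 (0.86), Psen2 by Anapc5 (0.84), Phc2 (0.83) and Copz1 (0.82), and Mapt by Eif4h (0.87), Tsc22d1 (0.84) and Noa1 (0.83). Apoe was followed by Luc7l3 (0.90), Aif1 (0.90) and Mbd3 (0.90), and Clu by Pld4 (0.83), Rplp0 (0.83) and Tapbpl (0.82). The highest values for Psen2, Mapt, Clu and Aplp1 were thus below those for App and Bace1.

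The wider pathway was read from 8 lists with 120 genes, of which 107 were tested. In Low against Control, 1 of them was called higher and 1 lower, beside 1.23% and 4.88% of all genes, and in High against Control 0 were called. In Low against High, 8 were called higher and 2 lower, beside 5.3% and 6.39% of all genes. The medians over the 107 genes were 0.09, -0.05 and 0.14 in the 3 comparisons, beside 0.06, -0.03 and 0.09 for all genes. With libraries 56 to 62 left out, which leaves 2 Low libraries, 0 of the 107 were called in any comparison. In that set the log2 fold change in Low against Control was -0.79 for Dclk1 (limma adjusted p = 0.0918) and 0.08 for Ppp2ca (limma adjusted p = 0.843), the 2 genes called with all libraries. With median-of-ratios scaling, 5 of the 10 calls in Low against High were lost, those of Ppp2ca (0.13, limma adjusted p = 0.119), Gsk3a (0.18, 0.0906), Vps35 (0.13, 0.0826), Mylip (0.24, 0.0644) and Stmn1 (0.21, 0.273). In Low against Control the call of Ppp2ca was lost with that scaling (0.16, limma adjusted p = 0.0792), and Map9 was called (0.20, limma adjusted p = 0.04998).

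Of the 8 other secretase genes analysed, which include the γ-secretase subunits Ncstn, Aph1a and Psenen and the α-secretases Adam10 and Adam17, 0 were called in any comparison, with medians of 0.05, -0.03 and 0.10. Over all genes, 6.11%, 0% and 11.7% were called in the 3 comparisons, and these shares stand beside each list of this paragraph. Of the 8 secretase genes, 3 had an unadjusted limma p under 0.05 in Low against High, where 29.1% of all genes did. Their lowest limma adjusted p there was 0.0518. Psenen, the most abundant, had a log2 fold change of 0.01 ± 0.09 (SE) in Low against Control and 0.05 ± 0.09 in High against Control, and Aph1a had 0.10 ± 0.06 and -0.02 ± 0.06. Of 4 genes for peptidases that degrade amyloid-β, Ide, the insulin-degrading enzyme, was called higher in Low against High (0.29 ± 0.10, limma adjusted p = 0.0489), and it averaged 19.0 ± 2.34 in Low, 15.3 ± 1.497 in High and 16.8 ± 2.70 in Control (SD, n = 8). In the other comparisons 0 of the 4 were called, and Ece1 and Ide were at 0.09 and 0.18 in Low against Control. Of 13 genes for proteins that bind App or its fragments, 0 were called, and Itm2c and Itm2b, related membrane proteins of the BRI family, were at 0.06 ± 0.08 and 0.10 ± 0.06 in Low against Control.

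Of 16 genes of endosomal sorting and endocytosis, the pathway in which Sorl1 acts, 1 was called in Low against High, beside 11.7% of all genes. Vps35, a core subunit of the retromer, was higher in Low (114 ± 9.52) than in High (96.8 ± 8.25), by 0.23 ± 0.07 (limma adjusted p = 0.0382), with 104 ± 12.2 in Control. The sortilin gene Sort1 and Bin1, a membrane-bending adaptor, were at 0.22 ± 0.13 and 0.13 ± 0.06 in that comparison.

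Among 17 genes of other apolipoproteins and lipid transport, 8 reached the level tested. Of these, 1 was called in Low against High, where 11.7% of all genes were. Apoc1, a small apolipoprotein, was called lower in Low against High (-0.73 ± 0.23, limma adjusted p = 0.0418), at a low level of 1.54 ± 0.603 in Low, 3.58 ± 2.49 in High and 2.77 ± 1.03 in Control. Apod and Pltp, the most abundant of the list, were at 0.07 ± 0.14 and 0.06 ± 0.09 in Low against Control. Of the 15 tested lipoprotein receptor genes, Mylip, a ubiquitin ligase for such receptors, was called higher in Low against High (0.32 ± 0.09, limma adjusted p = 0.0298). Lrp1, a major Apoe receptor of neurons, was at 0.23 ± 0.15 (adjusted p = 0.303). All 15 were above 0 in that comparison and all 15 below 0 in High against Control, which share the High libraries, with medians of 0.20 and -0.11 and 1 and 0 of them called. Of all genes, 69.9% were above 0 in the former comparison and 36.0% in the latter, and 11.7% and 0% were called.

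Of 24 genes of tau kinases and phosphatases, 2 were called in Low against High and 1 of these in Low against Control, beside 11.7% and 6.11% of all genes. Ppp2ca, the catalytic subunit of the phosphatase PP2A that acts on tau, was higher in Low (142 ± 14.7) than in Control (122 ± 9.77), by 0.22 ± 0.07 (limma adjusted p = 0.0487), and than in High (121 ± 9.77), by 0.23 ± 0.07 (limma adjusted p = 0.0226). Gsk3a, a kinase that phosphorylates tau, was higher in Low (114 ± 9.46) than in High (94.0 ± 8.42), by 0.28 ± 0.06 (limma adjusted p = 0.0056). No other gene of the list was called in any comparison, and the medians of the list were 0.10, -0.06 and 0.17.

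Of 19 tested genes of microtubule-associated proteins, 3 were called higher and 1 lower in Low against High, beside 5.3% and 6.39% of all genes. Map1b was higher by 0.39 ± 0.10 (limma adjusted p = 0.0127), Map9 by 0.34 ± 0.08 (limma adjusted p = 0.0078) and Stmn1, which destabilises microtubules, by 0.31 ± 0.10 (limma adjusted p = 0.0381). Dclk1, a doublecortin-like kinase, was lower in Low (82.7 ± 16.2) than in Control (144 ± 30.2), by -0.79 ± 0.14 (limma adjusted p = 0.0006), and than in High (126 ± 19.2), by -0.61 ± 0.14 (limma adjusted p = 0.0056). Its sign turned with the column, to 0.56 on the FPKM scale and 0.15 on the TPM scale in Low against Control. Reference genes on the same strand overlap Stmn1 and Dclk1, 1 each, so their coverage is uncertain. Of the called genes, Ppp2ca, Gsk3a, Vps35 and Dclk1 each overlap 1 reference gene on the other strand. The strand setting of the counting is not given, so this limit holds for them too.

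**Figure D5:**
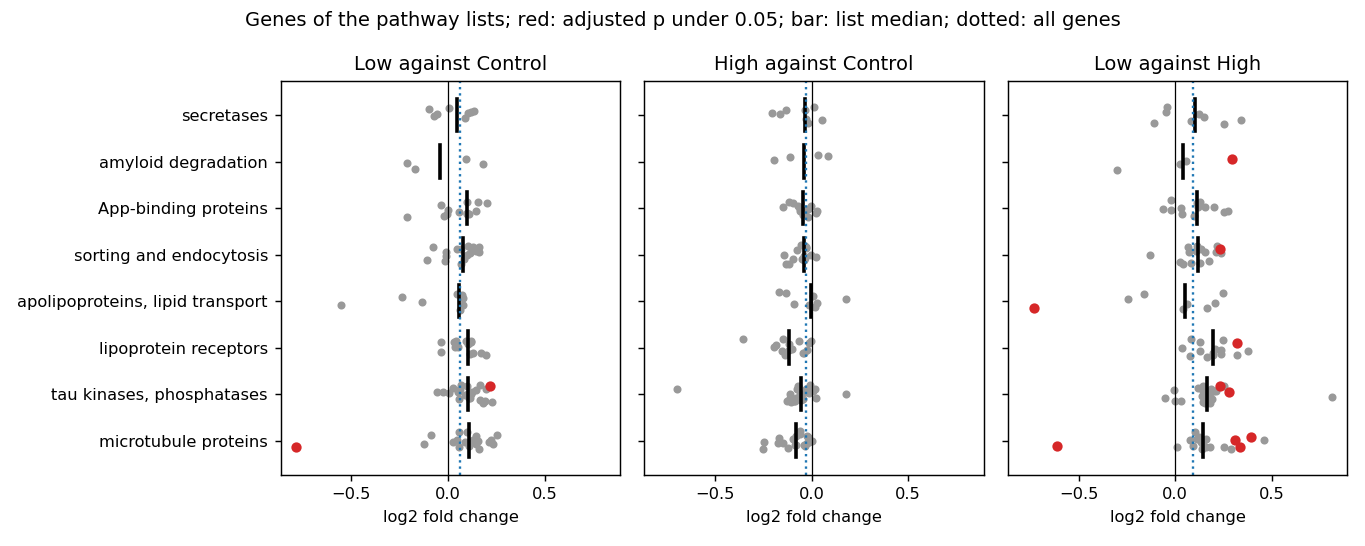
Log2 fold change (x axis) of each tested gene of the 8 pathway lists in the 3 comparisons. Red points passed an adjusted p of 0.05 in limma, black bars are list medians and the dotted line is the median of all genes. High against Control has no red point, and Dclk1 at -0.79 is the lowest point in Low against Control.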

How the data were processed

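Poly(A) RNA of 24 libraries was measured. According to the submitters' processing notes, the authors used FastQC, Trimmomatic, TopHat2 and StringTie, with versions not given in the sources used here. The deposited gene tables hold coverage (the signal used here, not scaled for depth), FPKM and TPM. The deposited TPM column of the Control and High tables sums to more than 1000000 and was read as a score. Coverage was summed per Ensembl gene, divided by the sum over reference genes and brought to a total of 1000000. Those at a mean of 1 or more were tested on log2(value + 1) with limma 3.58.1 (trend, robust; R 4.3.3), 3 groups in 1 fit, with Benjamini-Hochberg adjustment over 15644 genes. Fold changes on that scale understate changes of low genes. The tables hold no read counts, so no counting interval is given. The code was tested on simulated data.

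The members and lists were chosen with earlier results of these data known. Of the lists, genes that passed were named (at most 12 per comparison), otherwise the 2 most abundant. Of the marker lists, oligodendrocytes and endothelium were given above for Low against High only, and oligodendrocyte precursors and blood were not given. In Low against Control, the median log2 fold changes were 0.10 for oligodendrocytes and 0.12 for endothelium. They were -0.01 for the precursors and -0.26 for blood, with 0 genes of these lists called there, beside 6.11% of all genes. Besides Sorl1, 1 gene of the pathway is not reported here. Samples were grouped by labelled concentration. Alternatives were another pseudocount, other filters, scalings and columns, 2 groups in the fit, an exact Wilcoxon test, libraries 56 to 62 as a covariate, each library left out, and assembled loci added. The set without libraries 56 to 62 and the settings of the correlations and ratios were chosen after seeing the data.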

Additional observations from a re-analysis of the deposited data

Results flagged for a closer look

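Within groups of 8, 42 sets of values were screened for a library far from the rest by Dixon's criterion, which flags about 1 in 20 by chance, and 5 were flagged, where chance gives 2.1. App in Low library 61 had a scaled coverage of 691, with the other 7 Low libraries from 916 to 1029. In the same library, the log2 ratio of App to Aplp2 was 1.02 (others 1.19 to 1.34) and that of Mapt to App was -2.53 (others -2.96 to -2.77). That library also had the highest mitochondrial share, 33.8%. The log2 ratio of Bace1 to App was -5.35 in Control library 49 (others -4.33 to -3.99) and -4.75 in Low library 57 (others -4.22 to -3.76).

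Mapt was also flagged in the FPKM column, which the main comparison does not use. Its log2 fold change in Low against Control exceeded the median of all genes by 0.93, while its coverage gave 0.04.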

How the results depend on the processing

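In High against Control, 0 of the 8 genes were called under each of the 12 tested alternatives other than single left-out libraries and under each left-out library. In Low against Control, the count of members called was 8 with FPKM, 3 with TPM (Clu, Mapt, Psen2) and 1 with mitochondrial genes left out of the sum (Aplp2). In Low against High it was 8 with FPKM, 3 with TPM (Bace1, Clu, Mapt), 1 with mitochondrial genes left out of the sum (Aplp2) and 1 with 2 groups in the fit (Bace1). With 1 library left out, it ranged from 0 to 2 in Low against High and stayed at 0 in the other comparisons. Over all genes, the calls in Low against High then ranged from 1266 of 15659, without Low library 62, to 2676 of 15664, without Control library 49. FPKM moved the median of all genes to 0.53 and 0.52 in the comparisons with Low, and without scaling that median was 0.15 in High against Control and -0.11 in Low against High. Of all genes, FPKM called 12393 of 13816 in Low against Control and 12410 in Low against High. TPM called 3952 and 3927 of 15587, and the sum without mitochondrial genes 1759 and 2719 of 16241. With 2 groups in the fit, 1994 of 15587 genes were called in Low against High.

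The count of pathway genes in Low against Control, 2 as reported, was 1 with no filter, with a minimum mean of 5, with no scaling, with 2 groups in the fit and with libraries 56 to 62 as a covariate, 0 without those libraries and by the exact Wilcoxon test, 7 with mitochondrial genes left out, 34 with TPM and 99 with FPKM. In Low against High, 10 as reported, it was 2 with no scaling, 5 with median-of-ratios scaling and by the exact Wilcoxon test, 0 with libraries 56 to 62 as a covariate or left out, 20 with mitochondrial genes left out, 37 with TPM and 100 with FPKM. With 1 library left out, it ranged from 1 to 4 and from 4 to 19. It was 19 without Low library 61, 17 without Control library 49, 4 without Low library 59 or High library 67, 5 without Low library 62 and 6 without High library 65 or 72. Over all genes in Low against High, 2479 of 15656 were called without Low library 61 and 2676 of 15664 without Control library 49. They were 1282 of 15637 without Low library 59 and 1388 of 15627 without High library 67, beside 1828 of 15644 with all libraries. In Low against Control, leaving out Low library 61 gave 4 pathway genes, beside 963 of 15656 over all genes. The counts over all genes with FPKM, TPM and mitochondrial genes left out are given above. With no scaling, 628 and 1133 of 15644 genes were called in Low against Control and in Low against High. With median-of-ratios scaling these counts were 1249 and 1913 of 17086. With libraries 56 to 62 as a covariate they were 361 and 354 of 15644, and with those libraries left out 344 and 354 of 15669.

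Adding the coverage of same-strand assembled loci, which the Low tables lack, was computed without a test. It put all 8 members below 0 in Low against Control (-1.30 to -0.45) and in Low against High (-1.09 to -0.46), against -0.20 to 0.03 in High against Control.

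Some directions turned, mostly of small values. In High against Control with no scaling, App was 0.16, Aplp1 0.16, Aplp2 0.14, Bace1 0.13, Mapt 0.11 and Clu 0.16. With median-of-ratios scaling, App was 0.012, Aplp1 0.011 and Clu 0.017. With FPKM, App was 0.0238, Aplp1 0.0225, Aplp2 0.0233 and Clu 0.0257, and with TPM they were 0.0239, 0.0226, 0.0235 and 0.0258. Clu was 0.0043 with mitochondrial genes left out, 0.0010 with libraries 56 to 62 as a covariate and 0.0045 without them. In Low against High with no scaling, App was -0.11, Aplp1 -0.15, Aplp2 -0.023, Psen2 -0.097, Mapt -0.10 and Clu -0.073, and with median-of-ratios scaling Aplp1 was -0.029. In Low against Control with median-of-ratios scaling, Aplp1 was -0.018 and Mapt -0.017. Apoe was 0.66 with FPKM and 0.24 with TPM in Low against Control, and 0.59 and 0.18 in Low against High. Dclk1 was 0.56 and 0.15 in Low against Control, and 0.66 and 0.25 in Low against High. With 1 library left out, the values in High against Control ranged for App -0.066 to 0.023, Psen2 -0.0006 to 0.064, Apoe -0.029 to 0.073 and Clu -0.052 to 0.013. The cause of these changes was not tested.

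The tables give depth as summed coverage, which sets no counting error. Libraries 56 to 62 leave 2 Low libraries and 7 Control libraries outside them, and no fit separates the Low exposure from the kind of table.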
